A study of Homo sapiens with 8 samples.

Results

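The genes described here encode the parts of the lysosome: its soluble hydrolases and their activator proteins, its membrane proteins, the proton pump that acidifies it, and TFEB, a transcription factor of lysosomal genes. The members were a list of 50 genes chosen by name: 27 hydrolases and activators, 8 membrane proteins (with NPC2, the soluble partner of NPC1), 14 subunits of the proton pump and TFEB. All 50 were measured on all 8 arrays, among 15971 genes, and each was read from its probe with the highest mean log2 value over the arrays. The gene listed as CTSL2 carries the current symbol CTSV.

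MDA-MB-231, an established line from a human breast tumour that grows with mesenchymal features, was transfected transiently and harvested 48 h later. The groups were 4 arrays of cells given 75 nM of the miR-148b precursor and 4 arrays of cells given a negative control, for which the labels state neither sequence nor dose. Each group was called biological replicates in the labels, no further allele or agent was named for either, and nothing says which replicates came from separate cultures, so the spread between arrays may be partly technical. Mature miR-148b itself was not analysed here. Besides the group, each title holds a number, called its code here, and 3 titles hold a plus sign; the labels explain neither. Code 1 is on miR-148b replicates 1 and 2 and control replicate 1, code 2 is on miR-148b replicate 3 and control replicates 2 and 3, and the fourth replicates have code 3. Plus signs are on miR-148b replicates 2 and 3 and on control replicate 3. Both marks are thus uneven between the groups, so each difference is given without and with added code 1 and plus terms. Replicates 1, 3 and 4 match in both marks and give 3 matched pairs.

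The values are normalized intensities of 1 dye, with array medians from 370 to 404 and between 81 and 1038 empty cells per array among 33446 probes. Vimentin (VIM), a mesenchymal marker, read 142108 ± 23376 with miR-148b and 133586 ± 35170 in control (SD, n = 4 each). The estrogen receptor gene ESR1, off in this line, read 54.7 to 82.4 with miR-148b and 57.0 to 92.5 in control. Of the other genes listed as low in this line, CDH1 ranged over the 8 arrays from 17.9 to 115, but ERBB2 and EPCAM were not dim. ERBB2 read 3657 ± 1094 with miR-148b and 4120 ± 1738 in control, and EPCAM read 2779 ± 445 with miR-148b and 2904 ± 722 in control (SD, n = 4 each). CD44, listed as high, ranged from 18336 to 64408. SPARC, also listed as high, was dim instead and ranged over the 8 arrays from 43.6 to 368. PGR, listed as low, was not measured. Of the leukocyte genes, PTPRC ranged from 7.85 to 17.4 and CD14 from 119.7 to 369.8, while CSF1R was not dim, at 642 to 2941. In a bulk culture, fewer cells with a message and less message per cell cannot be told apart.

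Lysosomal hydrolases are made in the secretory pathway, most of them tagged with mannose 6-phosphate and delivered to the lysosome, where they break down proteins, glycans and lipids in an acid lumen. The proton pump, or V-ATPase, builds that acidity from a membrane sector (V0) and a cytosolic sector (V1), and heavily glycosylated membrane proteins such as LAMP1 and LAMP2 line the organelle. TFEB raises many of these genes together by binding a palindromic E-box element near their start sites. MicroRNAs act through their seed, bases 2 to 8, which pairs with sites in messages. Mature miR-148b, the agent tested, is shown with the other family members of the same seed, in capitals, as RefSeq gives them:
hsa-miR-148b-3p: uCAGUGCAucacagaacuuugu
hsa-miR-148a-3p: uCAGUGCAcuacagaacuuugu
hsa-miR-152-3p: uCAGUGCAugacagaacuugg
In GRCh38.p14 miR-148b-3p lies on the plus strand at chr12:54337278-54337299. Target sites in the members' messages were not analysed here.

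RefSeq promoters, 250 bases before to 50 bases after the gene start, were found for 36 of the 50 members. The motif TCACGTGA, which reads the same on both strands, stood in 5 of these 36 (13.9%), against 1.04% of all 27305 promoters. Those 5 were CTSA, GAA, LAMP1, MCOLN1 and ATP6V0D1. Its core CACGTG, counted wherever it occurs and so also within the longer motif, stood in 10 of 36 (27.8%) against 7.43%. A match describes these letters and is no measured site. With miR-148b the 5 differed on the log2 scale by -1.09, -0.50, -0.07, 1.55 and -0.41, in the order named. The 1.55 of MCOLN1 rests on 1 control array. On code 1 against the other codes they differed by -0.29, -0.83, -0.09, 1.02 and 0.17. Whether the motif goes with any difference was not tested. The promoters of CTSA and ATP6V0D1, members lower with miR-148b, and of GAA, a member lower on the code 1 arrays, are shown 5′ to 3′ along the gene with these motifs in capitals:
CTSA: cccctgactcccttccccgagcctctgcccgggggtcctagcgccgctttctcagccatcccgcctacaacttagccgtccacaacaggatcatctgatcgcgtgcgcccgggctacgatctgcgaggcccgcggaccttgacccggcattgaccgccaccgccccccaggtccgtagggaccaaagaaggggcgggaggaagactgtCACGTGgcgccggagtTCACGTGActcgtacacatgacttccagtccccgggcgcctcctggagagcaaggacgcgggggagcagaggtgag
ATP6V0D1: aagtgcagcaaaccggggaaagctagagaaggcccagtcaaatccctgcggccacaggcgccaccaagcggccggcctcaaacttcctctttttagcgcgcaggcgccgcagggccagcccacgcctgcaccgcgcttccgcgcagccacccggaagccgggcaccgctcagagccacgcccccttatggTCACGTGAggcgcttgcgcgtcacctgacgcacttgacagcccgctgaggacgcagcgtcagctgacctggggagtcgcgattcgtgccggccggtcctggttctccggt
GAA: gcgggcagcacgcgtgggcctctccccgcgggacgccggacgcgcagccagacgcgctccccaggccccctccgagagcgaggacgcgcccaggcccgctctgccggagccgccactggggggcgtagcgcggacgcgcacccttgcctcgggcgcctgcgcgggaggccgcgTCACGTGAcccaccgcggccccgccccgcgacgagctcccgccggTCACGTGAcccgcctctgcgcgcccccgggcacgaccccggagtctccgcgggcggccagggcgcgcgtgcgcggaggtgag
They lie at chr20:45891085-45891384 (plus strand), chr16:67481108-67481407 (minus strand) and chr17:80101331-80101630 (plus strand) in GRCh38.p14.

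The first comparison asked how these genes stood with miR-148b relative to control. No member passed the adjustment over all genes: in limma 0 of 50 had an adjusted p under 0.05, where 0 of 15971 genes did (0.0% in either direction). At an unadjusted p of 0.05, 6 members were past the threshold, all lower with miR-148b: CTSA, CTSD, HEXA, PSAP, CD68 and ATP6V0D1. That is 12% of the members, where 2.99% of all genes were lower and 2.39% higher by the same rule. The count was 2 (4.0%) without control replicate 2, where 1.59% of all genes were lower, 3 (6.0%) without control replicate 4, where 1.90% were, and 2 (4.0%) without miR-148b replicate 1, where 1.85% were. Without the 3 code 1 arrays it was 1, a share of 2.0% near the 1.89% of all genes. With added code 1 and plus terms, 12 members (24.0%) were lower past an unadjusted p of 0.05, where 8.55% of all genes were lower and 6.17% higher, and again 0 members were higher. Those 12 were CTSA, HEXA, GM2A, NAGLU, GAA, CTSH, NEU1, CD68, ATP6AP2, ATP6V0D1, ATP6V0A1 and ATP6V1C1. In 4 members, CTSA, HEXA, PSAP and CD68, every miR-148b array lay below every control array (8.0%, against 2.41% of 14825 genes with a value on every array), and in 0 members did every miR-148b array lie above (against 1.59%).

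**Figure D1:**
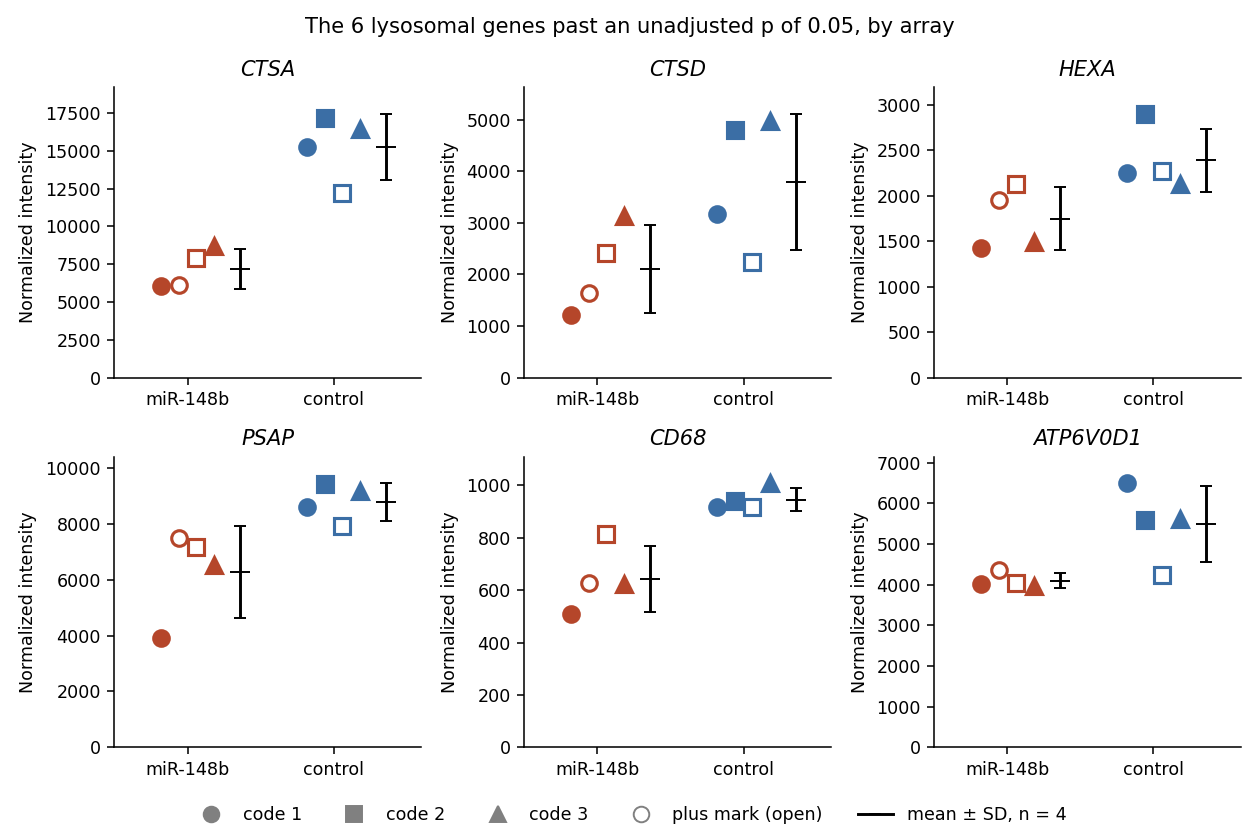
Normalized intensity (linear axis from 0) of the 6 genes past an unadjusted p of 0.05, with 1 symbol per array, miR-148b left of control; symbol shape gives the code, open symbols the plus mark, and the bars the mean ± SD of 4 arrays. CTSA separates the groups widest, with the miR-148b arrays between 6042 and 8688 and the control arrays between 12193 and 17149, while in CTSD and ATP6V0D1 the plus-marked control array falls next to the miR-148b arrays.

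Among the hydrolases the difference was widest for CTSA. CTSA encodes cathepsin A, a serine carboxypeptidase that also protects beta-galactosidase and neuraminidase in a complex. It read 6042, 6105, 7910 and 8688 on miR-148b replicates 1 to 4, against 15257, 17149, 12193 and 16433 on control replicates 1 to 4. The lowest control value, 12193, was on the array with the plus mark and still lay above the highest miR-148b value. The log2 difference was -1.09 (SE 0.19), or 0.469 times the control level, and -0.96 (SE 0.14) with added code 1 and plus terms. Its adjusted p over all genes in limma was 0.847 without and 0.159 with these terms, so CTSA did not pass. The authors' own cut was 1.5-fold at a false discovery rate of 16%. By that cut CTSA was the 1 member called with the terms, among 33 genes lower (0.207%) and 26 higher (0.163%), and 0 genes (0.0%) were called without them. In an exact two-sided permutation test of the arrays p was 0.0286, the smallest that 70 arrangements allow. CTSA was known from earlier results of these data, so this p only describes its separation. A further CTSA probe gave -1.07.

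The partners that cathepsin A protects lay closer to control. GLB1, the beta-galactosidase gene, read 12925 ± 1807 with miR-148b and 12754 ± 2675 in control (SD, n = 4 each), which on the log2 scale differed by 0.03 (SE 0.19). NEU1, the neuraminidase gene, read 4004, 4351, 10504 and 9795 on miR-148b replicates 1 to 4, against 4964, 12137, 11572 and 11487 on control replicates 1 to 4. The 3 low values were those of code 1, in both groups. Its log2 difference was -0.54 (SE 0.43) without and -0.24 (SE 0.09) with the terms, and the 3 matched pairs gave -0.31, -0.14 and -0.23.

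HEXA and PSAP were the other hydrolases or activators without overlap. HEXA, the alpha subunit of beta-hexosaminidase, read 1424, 1959, 2125 and 1489 on miR-148b replicates 1 to 4, against 2248, 2903, 2278 and 2129 on control replicates 1 to 4. The groups did not overlap, though the closest values, 2125 and 2129, all but touched. HEXA differed by -0.46 (SE 0.19) on the log2 scale, and 2 further HEXA probes gave -0.44 and, at a dim level, -0.30. GM2A, the activator that presents the ganglioside to that enzyme, averaged 602.7 ± 75.4 with miR-148b and 783 ± 124 in control (SD, n = 4 each), at -0.37 (SE 0.17), with 1 miR-148b array inside the control range. PSAP, the precursor of the saposin activators, read 3906, 7506, 7176 and 6548 on miR-148b replicates 1 to 4, against 8608, 9449, 7937 and 9172 on control replicates 1 to 4. The groups did not overlap, and miR-148b replicate 1 lay far below its group. Its log2 difference was -0.53 (SE 0.22), its matched pairs gave -1.14, -0.15 and -0.49, and the further probe gave -0.49.

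Cathepsin D varied more between arrays. CTSD, the main aspartic protease of the lysosome, read 1212, 1642, 2407 and 3133 on miR-148b replicates 1 to 4, against 3169, 4796, 2236 and 4975 on control replicates 1 to 4. The groups overlapped through the plus-marked control array, and the plus pair was the 1 matched pair above 0, at 0.11, where the others gave -1.39 and -0.67. For CTSD the log2 difference was -0.87 (SE 0.36) without and -0.57 (SE 0.29) with the terms. CTSB, a cysteine protease, read 15892 ± 3690 with miR-148b and 18633 ± 2855 in control (SD, n = 4 each), at -0.24 (SE 0.20) without and -0.06 with the terms. MAN2B1, an alpha-mannosidase, was at -0.27 (SE 0.14) and -0.26 with the terms. Above control stood PPT1, a palmitoyl thioesterase, at 0.32 (SE 0.32) and CTSK, a collagen-cleaving cathepsin, at 0.23 (SE 0.17), both with overlapping groups. The other hydrolases overlapped too, TPP1 at -0.64 (SE 0.35), SMPD1 at -0.45, CTSZ at -0.43 and LGMN at -0.39. FUCA1 was at -0.27, LIPA at -0.14, GLA at -0.07 and GUSB at 0.01. CTSH was at -0.67 (SE 0.50) without and -0.30 with the terms, GAA at -0.50 and -0.34, and NAGLU at -0.47 and -0.30. CTSS was at -0.55 and CTSF at -0.50, while CTSV at 0.27, CTSC at 0.23 and ASAH1 at 0.14 lay above control.

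Over the 27 hydrolases and activators the median log2 difference was -0.39, with 20 below and 7 above control, where all genes had a median of -0.03 with 53.5% below. With added code 1 and plus terms the median was -0.17, with 23 below and 4 above, where all genes were at -0.02 with 53.0% below. On code 1, which holds 2 miR-148b arrays and 1 control array, 23 of the 27 read lower in that fit, with a median of -0.40. Of all genes 53.6% read lower on code 1, with a median of -0.04. Without the code 1 arrays the median was -0.21.

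**Figure D2:**
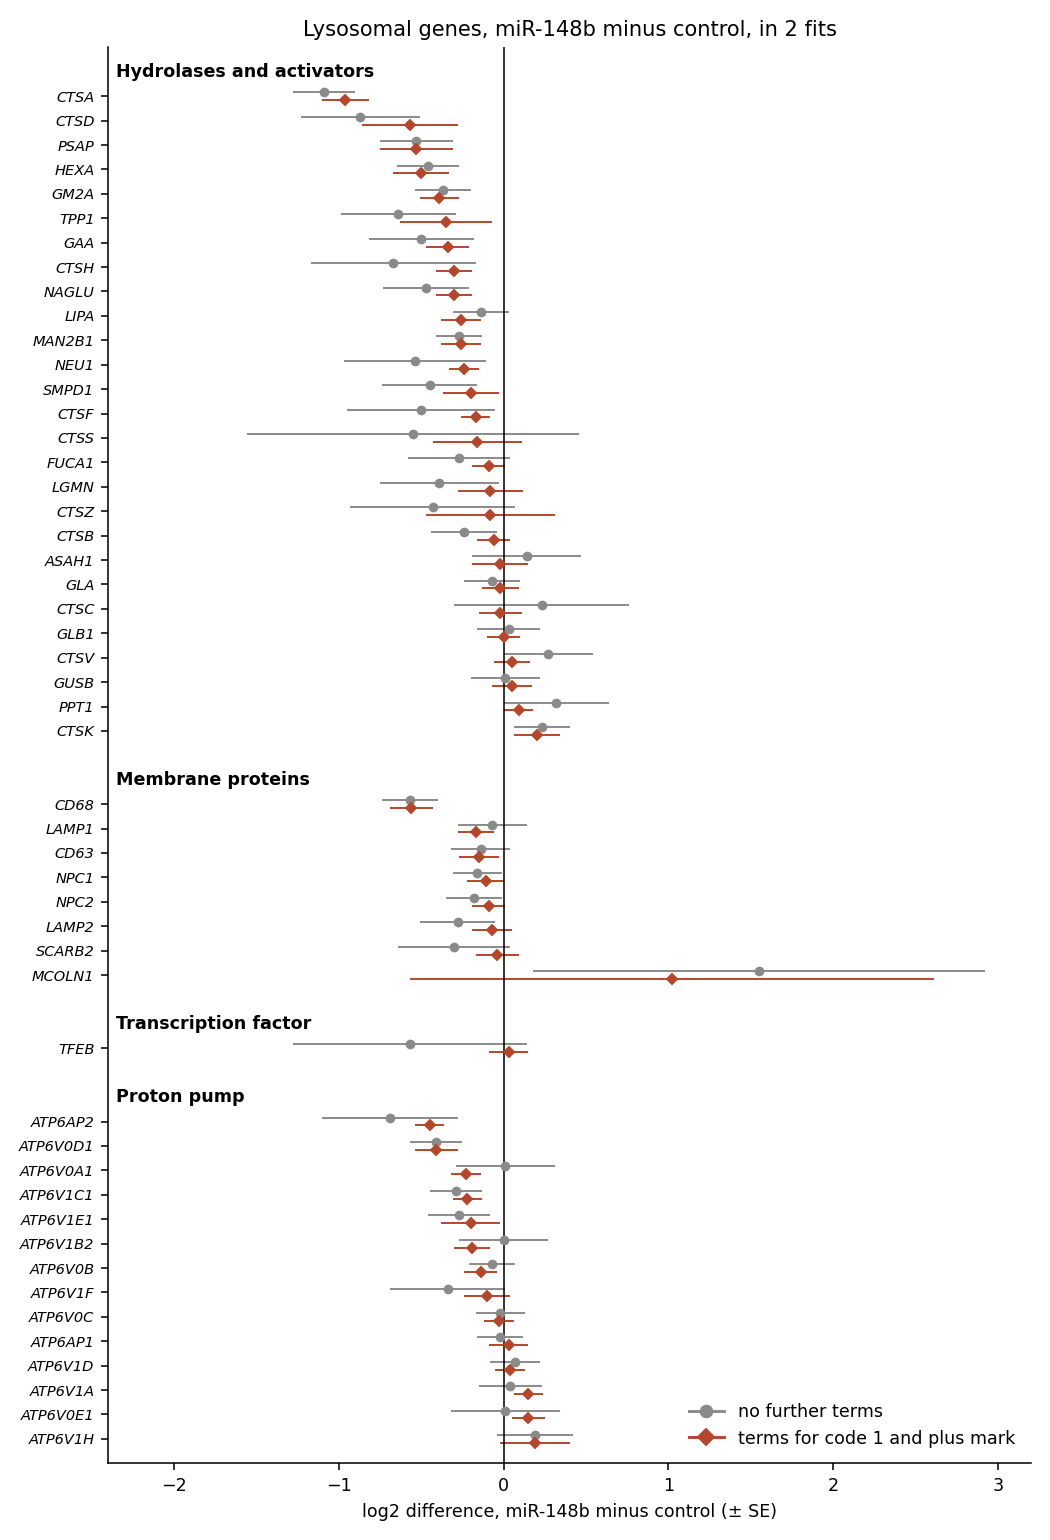
Log2 difference, miR-148b minus control (horizontal axis, bars ± SE), for each of the 50 genes by class, without further terms (grey circles) and with added code 1 and plus terms (red diamonds). CTSA stands farthest left in both fits, most hydrolases move towards 0 and have shorter bars with the terms, and MCOLN1 has the widest bars, with 1 control array at 7.44.

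Among the membrane proteins CD68 was the 1 member without overlap. CD68, a heavily glycosylated lysosomal protein best known from macrophages, read 510.1, 626.7, 812.6 and 623.9 on miR-148b replicates 1 to 4, against 916.4, 938.8, 915.6 and 1008 on control replicates 1 to 4. The groups did not overlap, and the control arrays kept within a narrow range. Its log2 difference was -0.57 (SE 0.17) without and -0.56 (SE 0.13) with the terms, with an adjusted p in limma of 0.847 and 0.197, and matched pairs at -0.85, -0.17 and -0.69. Of 6 leukocyte markers measured, 5 were below control and 1, PTPRC, above, at 0.35, with CD14 at -0.72. The summed level of the 5 with a value on every array was 975 to 3223 with miR-148b and 1055 to 3459 in control, most of it CSF1R, which was at -0.42 and differed by -1.98 on code 1. None was listed at 0, and their part in the CD68 value was not tested.

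The structural proteins and cholesterol carriers overlapped between groups. LAMP1 ranged from 59002 to 85398 with miR-148b and from 61994 to 103480 in control, at a log2 difference of -0.07 (SE 0.21). LAMP2 averaged 4039 ± 1114 with miR-148b and 4830 ± 931 in control (SD, n = 4 each), at -0.28 (SE 0.23). Of its 2 further probes 1 gave 0.20 and 1 gave -0.17. The probe at 0.20 was nearly as bright as the one used, with a mean level of 4384 against 4435. The sign of the LAMP2 difference thus depends on the probe. The tetraspanin CD63 was at -0.14 (SE 0.18). The cholesterol exporters NPC1 and NPC2, which pass cholesterol out of the lumen, were at -0.16 (SE 0.15) and -0.18 (SE 0.17). Read from the probe used, each of LAMP2, CD63, CD68, NPC1 and NPC2 was lower in all 3 matched pairs, by 0.03 or more on the log2 scale. SCARB2, a sorting receptor for a lysosomal hydrolase, was at -0.30 (SE 0.34) and -0.04 with the terms. MCOLN1, a calcium channel of the lysosomal membrane, read between 551.2 and 640.9 with miR-148b, against 629.6, 7.44, 600.0 and 680.5 on control replicates 1 to 4. Its fitted difference of 1.55 (SE 1.37) rests on the single value of 7.44, and without control replicate 2 it was -0.06. Over the 8 genes the median was -0.17 without and -0.10 with the terms, with 7 below control in both fits.

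The 14 proton pump genes had a median log2 difference of -0.02, beside -0.03 over all genes, with 8 below and 6 above, and of -0.12 with the terms, with 9 below and 5 above. ATP6V0D1, the d subunit of the membrane sector, read 4025, 4358, 4047 and 3964 on miR-148b replicates 1 to 4, against 6493, 5590, 4240 and 5623 on control replicates 1 to 4. The miR-148b arrays lay close together and overlapped control only through the plus-marked control array, at 4240. ATP6V0D1 differed by -0.41 (SE 0.16) on the log2 scale without and -0.41 (SE 0.13) with the terms.

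ATP6AP2, an accessory subunit also known as the prorenin receptor, read 2244, 2308, 5449 and 4565 on miR-148b replicates 1 to 4, against 2843, 6444, 7549 and 6301 on control replicates 1 to 4. It was low on all 3 code 1 arrays, and within each matched pair the miR-148b array was lower, by -0.34, -0.47 and -0.47. Its log2 difference was -0.69 (SE 0.41) without and -0.45 (SE 0.09) with the terms, with an adjusted p in limma of 0.184 in the second fit. ATP6V0A1, the a1 subunit, which read higher on code 1, was at 0.01 (SE 0.30) without and -0.23 (SE 0.09) with the terms. ATP6V1C1, a regulatory subunit of the cytosolic sector, was at -0.29 (SE 0.16) and -0.22 (SE 0.09) with the terms. ATP6V1E1 was at -0.27 (SE 0.19) and ATP6V1F at -0.34 (SE 0.35), with overlapping groups. The proteolipid ATP6V0C, which forms the rotor ring, was at -0.02 (SE 0.15), the accessory subunit ATP6AP1 at -0.02 (SE 0.14), ATP6V1D at 0.07 (SE 0.15) and ATP6V1H, which regulates the coupling of the sectors, at 0.19 (SE 0.23). ATP6V0B, ATP6V0E1, ATP6V1A and ATP6V1B2 were at -0.07, 0.01, 0.04 and 0.0039.

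The matched pairs compare arrays of the same code and plus mark. In these, 22 of the 50 members (44.0%) were lower with miR-148b in all 3 pairs, where 20.7% of 14825 genes were, and 3 were higher in all 3, where 17.5% of genes were. The hydrolases gave 13 of the 22 (48.1% of their class), the membrane proteins 5 (62.5%) and the pump 4 (28.6%). Those 5 include LAMP2, whose sign depends on the probe. The 4 pump genes were ATP6AP2, ATP6V0D1, ATP6V0A1 and ATP6V1C1. The 3 higher ones were GUSB, PPT1 and ATP6V1H. A further ATP6V1H probe differed by -0.31 in the fit without terms. The medians of the hydrolases were -0.19, -0.14 and -0.14 in the pairs of replicates 1, 3 and 4, those of the membrane proteins -0.16, -0.17 and -0.18, and those of the pump -0.07, -0.04 and -0.24. All genes had medians of 0.03, -0.04 and -0.01 in the same pairs.

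**Figure D3:**
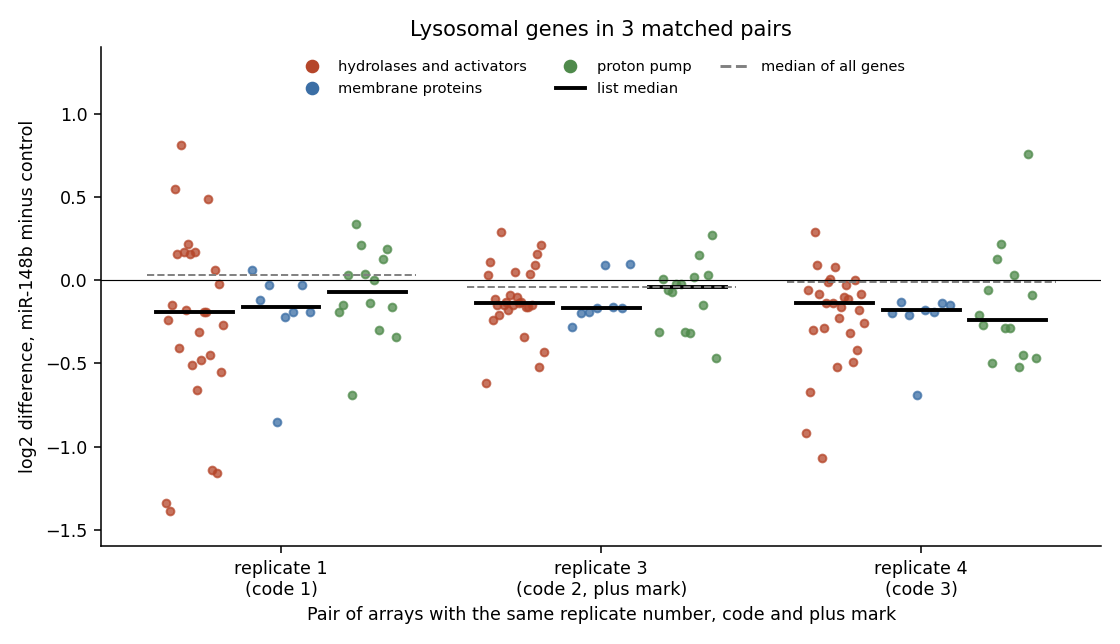
Log2 difference, miR-148b minus control (vertical axis), of each gene in the 3 pairs of arrays that match in replicate number, code and plus mark, coloured by class, with the class median as a black bar and the median of all genes as a dashed line. The hydrolase and membrane protein medians lie between -0.14 and -0.19 in every pair, and the plus-marked pair has the narrowest range, its lowest gene being CTSA at -0.62.

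The next comparison set the code 1 arrays against the other codes. TFEB read 165.8, 166.8, 598.9 and 842.8 on miR-148b replicates 1 to 4, against 163.1, 827.1, 651.3 and 777.9 on control replicates 1 to 4. All 3 code 1 arrays, of both groups, lay at nearly the same low value and the other 5 lay between 598.9 and 842.8. In the fit with treatment, code 1 and plus mark, the TFEB difference between code 1 and the other codes was -2.17 (SE 0.12), with an adjusted p in limma of 6.73e-05. The treatment difference of TFEB was 0.03 (SE 0.12) in the same fit and -0.57 (SE 0.71) without the terms.

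Of the 50 members, 20 (40.0%) were lower and 4 (8.0%) higher on code 1 at an adjusted p under 0.05, where 18.9% of all genes were lower and 17.2% higher. The 4 higher members were CTSC, PPT1, CTSV and ATP6V0A1. By class, 11 of 27 hydrolases, 3 of 8 membrane proteins and 5 of 14 pump genes were lower, and TFEB made up the 20. CTSH, an aminopeptidase, averaged 1579 ± 199 on code 1 (SD, n = 3) and 4647 ± 647 on the other codes (SD, n = 5), a difference of -1.47 (SE 0.11). NEU1 averaged 4440 ± 486 on code 1 (SD, n = 3) and 11099 ± 936 on the others (SD, n = 5), a difference of -1.26 (SE 0.09). CTSF, a further cysteine protease, averaged 4283 ± 358 on code 1 and 11211 ± 734 on the others, a difference of -1.34 (SE 0.09). The arrays of code 1 and of the other codes did not overlap for any of these 3. Over the 50 members the arrays did not overlap in 23 that were lower and 4 that were higher on code 1, where 17.4% of genes were lower and 15.8% higher in this way.

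CTSS, a cysteine protease of antigen-presenting cells, was lower on code 1 by the widest margin, at -2.67 (SE 0.27). It read 66.3, 277 and 88.4 on the code 1 arrays, against 615 to 1137 on the other codes. CTSC, which activates serine proteases, ran the other way, at 7201 ± 1050 on code 1 (SD, n = 3) and 2626 ± 568 on the others (SD, n = 5), a difference of 1.45 (SE 0.13). PPT1 averaged 46520 ± 2954 on code 1 (SD, n = 3) and 24132 ± 1209 on the others (SD, n = 5), a difference of 0.92 (SE 0.09). In the pump, ATP6AP2 was lower on code 1, at -1.15 (SE 0.09), and ATP6V0A1 higher, at 0.87 (SE 0.09). GAA, the acid alpha-glucosidase whose promoter is shown above, was at -0.83 (SE 0.13). CTSA itself was at -0.29 (SE 0.14) on code 1 with an adjusted p of 0.156 in limma, and CD68 at -0.19 (SE 0.13).

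**Figure D4:**
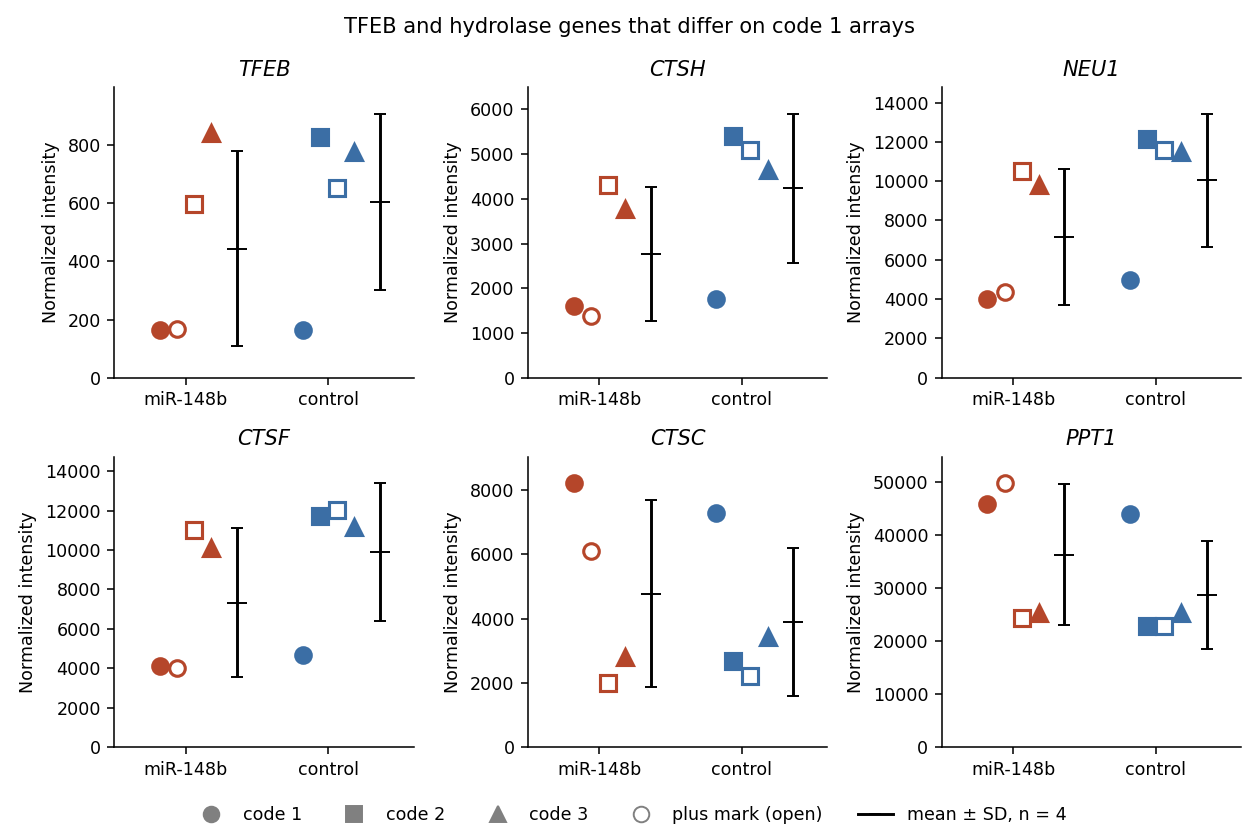
Normalized intensity (linear axis from 0) of TFEB, CTSH, NEU1, CTSF, CTSC and PPT1, with 1 symbol per array, miR-148b left of control; symbol shape gives the code, open symbols the plus mark, and the bars the mean ± SD of 4 arrays. In each panel the 3 circles, code 1, lie apart from the squares and triangles in both groups, low for the first 4 genes and high for CTSC and PPT1.

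The last comparison set the plus arrays against the others. At an adjusted p under 0.05 in limma, 4 of 50 (8.0%) were higher on the plus arrays, a share near the 5.87% of all genes that were higher. Lower on the plus arrays were 0 of 50, where 7.68% of all genes were lower. ATP6V1B2, a subunit of the pump's cytosolic sector, averaged 3629 ± 507 on the plus arrays (SD, n = 3) and 2252 ± 178 on the others (SD, n = 5), a difference of 0.74. The acid ceramidase gene ASAH1 was at 0.84, LAMP1 at 0.48 and CTSS at 1.12.

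**Figure D5:**
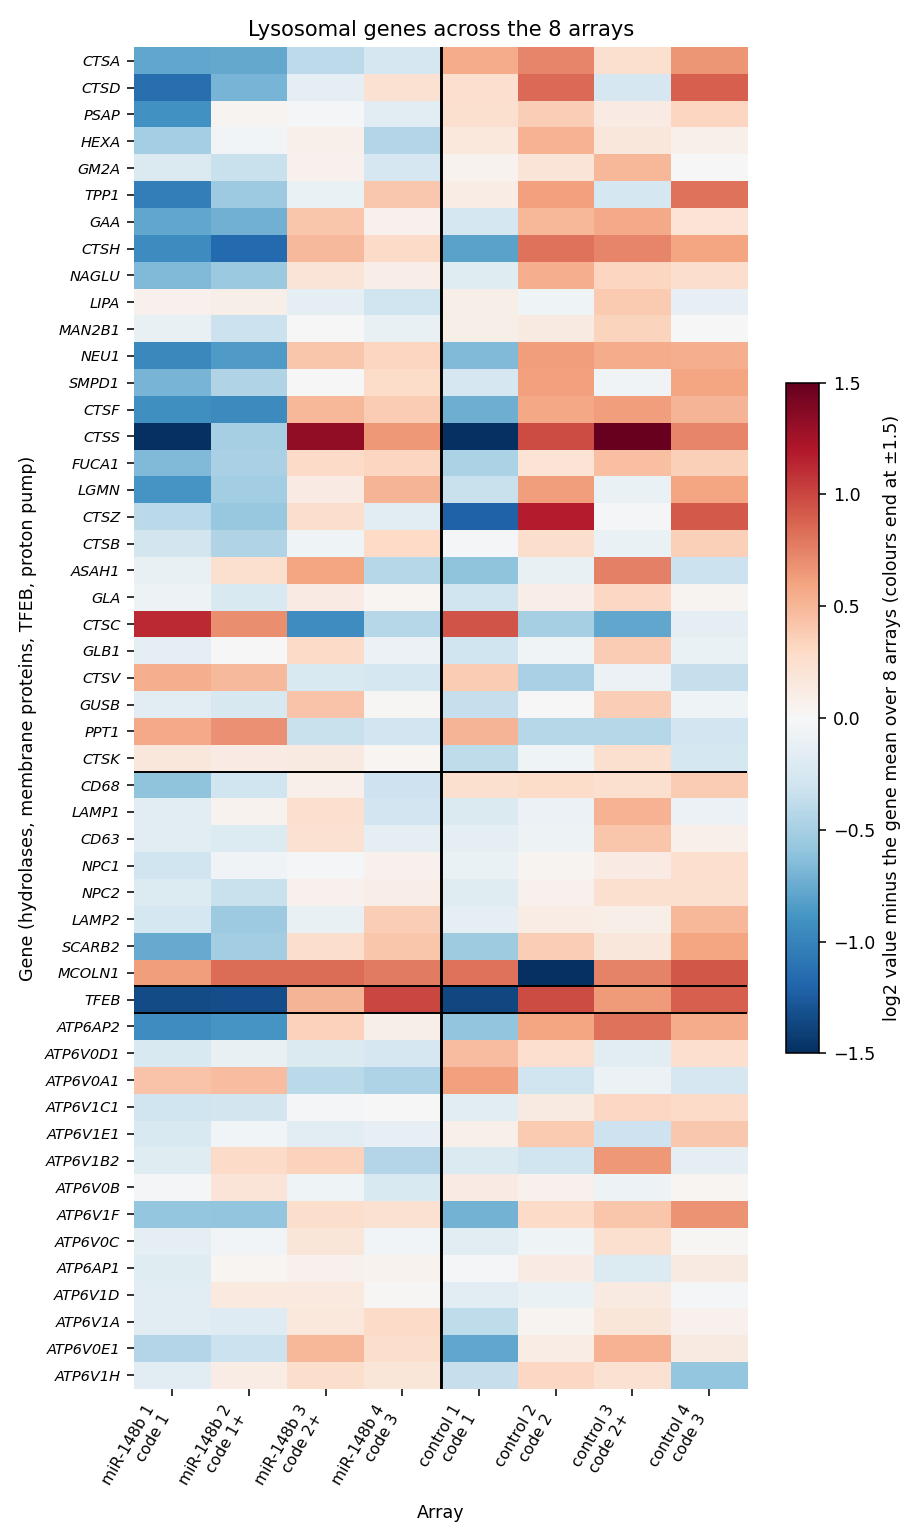
Log2 value minus the gene's mean over the 8 arrays, in colour (red above, blue below, colours ending at ±1.5), for the 50 genes (rows, by class) on the 8 arrays (columns, miR-148b left of control, with code and plus mark). Columns 1 and 2 of miR-148b and the first of control, all code 1, share blue cells in part of the hydrolase rows and in the TFEB row. In 12 of the 27 hydrolase rows the code 1 arrays all lay below the other arrays. The top row, CTSA, is blue on the 4 miR-148b arrays and red on the 4 control arrays.

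A further list of 64 lysosomal genes that were not members, of which 54 were measured, was read in the same fits. Its median log2 difference was -0.25, with 40 below and 14 above control, and -0.16 with the terms, with 44 below and 10 above. At an unadjusted p of 0.05, 3 of the 54 were lower (5.56%, against 2.99% of all genes) and 0 higher, and with the terms 9 were lower (16.7%, against 8.55%). In the matched pairs, 21 of 53 with a value on every array were lower in all 3 (39.6%, against 20.7%). SUMF1, which activates sulfatases, read 1785 ± 208 with miR-148b and 2594 ± 142 in control (SD, n = 4 each), without overlap, at -0.55 (SE 0.14). Of the genes that make the mannose 6-phosphate tag, NAGPA was at -0.46 (SE 0.18), GNPTG at -0.47 (SE 0.21) and GNPTAB, which encodes the catalytic subunit, at 0.20 (SE 0.29). The receptors of the tag, M6PR and IGF2R, were at -0.05 (SE 0.18) and -0.23 (SE 0.21). IDUA, an iduronidase, was at -0.77 (SE 0.26), TCIRG1, the a3 pump subunit, at -0.73 (SE 0.32) and LAMTOR2, of the complex that anchors growth signalling to the lysosome, at -0.28 (SE 0.13). The relatives of TFEB differed by code, TFE3 at -1.36 and MITF at 1.22 on code 1.

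The cystatins, inhibitors of cysteine cathepsins, were listed with these genes. CST3, the secreted cystatin C, averaged 3357 ± 780 with miR-148b and 4890 ± 982 in control (SD, n = 4 each), at -0.54 (SE 0.22) without and -0.37 with the terms. CSTB, a cytosolic cystatin, was at -0.43 (SE 0.29). CST6 read 18.3, 21.4 and 10.1 on the code 1 arrays, against 3173 to 4383 on the other codes, in both groups.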

How the data were processed

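RNA of 8 samples was hybridised to Agilent whole-genome arrays with 1 dye, and scanned; per the labels, the image software was Agilent Feature Extraction 10.5.1.1. The values used are linear probe intensities that the authors deposited, already normalized between arrays; how background was corrected, how arrays were normalized and which probes were dropped is not given in the sources used here. All arrays share 1 highest value, 243058, so a shift of all genes could not be seen, and no detection flags were given. The number of arrays limits the precision.

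Log2 was taken with a pseudocount of 0. Of 33446 probes, 24790 had 1 gene symbol, 27 several and 8629 none; symbols were updated by gene identifier, and 1 probe per gene, that with the highest mean log2 value, gave 15971 genes, 14825 of them with a value on all arrays. Empty cells stayed empty. limma 3.58.1 in R 4.3.3 was fitted to all genes with treatment alone and with added code 1 and plus terms, with two-sided tests and Benjamini-Hochberg adjustment over all genes; 0 columns were left out. Differences are miR-148b minus control, code 1 minus the other codes, or plus minus no plus. The members and lists were chosen with earlier results of these data known. Described by array were, per class, the 6, 4 and 5 members with the smallest p, the 2 with the smallest p in the other direction, a set of central genes, the 6 further lysosomal genes with the smallest p, and up to 6 members each for code 1 and the plus mark. The other members, named to account for all 50, and GNPTAB, M6PR, IGF2R, TFE3, MITF and the cystatins are outside that rule, and their values were known when they were named. Simulated data over 14825 genes were built with the code 1 and plus differences and the spread of the fit with terms. In them the fit without terms found 1.49% of 1.5-fold and 20.9% of 2-fold changes, with 1 false call. The fit with terms found 25.4% and 67.2%, with 7 false calls. Simulated without these differences, the fit without terms found 49.3% and 74.6%, and that with terms 32.8% and 67.2%. The simulation assumed these differences, so it cannot show which fit is better for the real arrays. Alternatives are given at the end.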

Additional observations from a re-analysis of the deposited data

Results flagged for a closer look

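Within the 2 treatment groups, 100 sets of 4 arrays (50 genes in each group) were examined for an array far from the other 3, taken as a gap to the nearest array above Dixon's 95% critical share of the whole range, and 8 were found. Chance marks about 1 in 20 such sets. Control replicate 1, the only control array of code 1, gave 5 of the 8. On it CTSH was lowest at 1769, CTSF lowest at 4692, NEU1 lowest at 4964, TFEB lowest at 163.1 and PPT1 highest at 43952. MCOLN1 was lowest on control replicate 2, at 7.44. ATP6V1B2 was highest on control replicate 3, the only control array with the plus mark, at 4210. ATP6AP1 was lowest on miR-148b replicate 1, at 10659.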

How the results depend on the processing

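Across all alternatives run, limma called 0 genes at an adjusted p under 0.05. The medians stayed below 0, from -0.50 to -0.17 for the hydrolases, -0.24 to -0.10 for the membrane proteins and -0.15 to -0.02 for the pump. Medians of all genes ran from -0.04 to 0.01 in these settings. In the fit without terms the pump's -0.02 stood beside -0.03 over all genes. Members past an unadjusted p of 0.05 numbered 6, but 12 with added code 1 and plus terms. Without the code 1 arrays there was 1, where its 2.0% lies near the 1.89% of all genes lower. When 1 array was left out they numbered 2 to 7, where 1.59% to 5.17% of genes were lower and 1.2% to 5.37% higher. Members without overlap numbered 4, but 14, all lower, without the code 1 arrays, where 10.4% of genes were lower and 5.93% higher. Without the plus arrays the number was 11, 10 lower and 1 higher, where 11.5% of genes were lower and 11.3% higher. When 1 array was left out the number was 4 to 11, where 2.74% to 6.36% of genes were lower and 1.82% to 6.58% higher. It was 11, all lower, without control replicate 1, where 6.06% of genes were lower and 3.41% higher. Without control replicate 3 it was 8, 7 lower and 1 higher, where 6.36% of genes were lower and 6.58% higher. For CTSA, at -1.09, an exact permutation test within code number gave p = 0.0556, the smallest 18 arrangements allow. CTSA was chosen with its values known and its groups do not overlap, so this p too only describes its separation. Deviations of equally numbered arrays correlated at 0.71, 0.59 and 0.71 for replicates 1, 3 and 4, which share code and plus mark, and at -0.55 for replicate 2, which does not, and 5 of 8 arrays correlated best with their own number. The numbers were therefore not taken as pairing all arrays. With the replicate block 8 members (16.0%) were lower past an unadjusted p of 0.05, where 4.99% of all genes were lower and 3.91% higher, with class medians of -0.39, -0.17 and -0.02. Of the 61 lysosomal and cystatin genes whose treatment difference is given, 41 kept their sign throughout, and 76 of 1211 values changed sign. With the terms these were ASAH1 -0.02, ATP6AP1 0.03, ATP6V1B2 -0.19, ATP6V0A1 -0.23, CTSC -0.02, GLB1 -0.0042, GNPTAB -0.08 and TFEB 0.03, and with code as a block ATP6V0A1 -0.20, ATP6V0C 0.04, CTSC -0.20, CTSS 0.23, GLA 0.02 and LAMP1 0.02. With the matched replicates alone they were ATP6AP1 0.01, ATP6V0A1 -0.24, ATP6V1B2 -0.19, CTSC -0.09, CTSZ 0.01, GLA 0.01, GNPTAB -0.01, MCOLN1 -0.08 and TFEB 0.01. Without the code 1 arrays they were ASAH1 -0.03, ATP6AP1 0.04, ATP6V0A1 -0.22, ATP6V0C 0.0042, ATP6V1B2 -0.12, CTSC -0.21, GNPTAB -0.05 and IGF2R 0.05, and without the plus arrays ATP6V0A1 -0.04, ATP6V1B2 -0.09 and GLA 0.03. With all probes averaged they were ASAH1 -0.17, ATP6V1A -0.02, ATP6V1H -0.06, GLB1 -0.02 and M6PR 0.03, and with arrays centred ATP6V1B2 -0.0014. Of 23 further probes of the members, 16 had the sign of the probe used and 7 the other. Leaving out 1 array gave ranges of -0.04 to 0.41 for ASAH1, -0.09 to 0.04 for ATP6AP1, -0.14 to 0.22 for ATP6V0A1, -0.08 to 0.06 for ATP6V0C, -0.25 to 0.18 for ATP6V0E1, -0.08 to 0.11 for ATP6V1A, -0.11 to 0.22 for ATP6V1B2, -0.11 to 0.58 for CTSC, -1.35 to 0.22 for CTSS, -0.18 to 0.02 for GLA, -0.06 to 0.16 for GLB1, -0.12 to 0.14 for GUSB, -0.16 to 0.10 for LAMP1, -0.11 to 0.06 for M6PR and -0.06 to 2.11 for MCOLN1. The cause of these changes was not tested.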
